A study of Mus musculus with 4 samples.

Results

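Transcripts of 8 mouse genes of the primed epiblast and the primitive streak were followed in embryonic stem (ES) cells, in mouse embryonic fibroblasts (MEFs) and in an induced pluripotent stem (iPS) cell clone. The genes were T, Mixl1, Gsc, Otx2, Pou3f1, Foxd3, Zic2 and Gbx2, taken as all gene probes that the array files name for them. They are 8 of 28478 gene names on the array, and 7 of them are among the 17620 genes that could be tested on all arrays. Foxd3 was not, because its only spot was marked by the scanner software for its local background on both MEF arrays, and its values come from an added fit described where it is reported.

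The epiblast of the mouse embryo passes from a naive state, which ES cells grown with leukemia inhibitory factor (LIF) resemble, through a formative to a primed state, and then forms the primitive streak, from which mesoderm and endoderm arise. Otx2 and Pou3f1 encode transcription factors known to rise on leaving the naive state, while T, Mixl1 and Gsc are early transcription factors of the streak and respond to Wnt and Nodal signals. These genes are therefore used as markers of how far a culture of pluripotent cells has moved toward differentiation.

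Each of the 4 arrays had 2 colours and compared RNA of the ES cell line CGR8.8, in green (Cy3), with RNA of MEFs (2 arrays) or iPS cells (2 arrays) in red (Cy5), to ask how the clone compares with ES cells and fibroblasts. ES and iPS cells were grown with LIF at 1000 IU/ml. The iPS cells are 1 clone taken 30 days after transduction, and the factors transduced are not named in the labels. The MEFs were taken after several passages, and their growth conditions are not given. The labels call the 2 arrays of a group biological replicates without saying that the cultures were separate, so p-values measure only how far these samples spread, which may be technical. The share of gene probes well above background was 62.01% to 63.37% for the ES RNA and 61.05% to 63.2% for the red RNAs, and the 4 arrays shared 1 slide, so that slide position and group cannot be told apart. All 9 pluripotency markers, Pou5f1, Sox2 and Nanog among them, were well above background in ES cells, MEFs and iPS cells alike. The log2 of their summed level was 14.75 to 16.87 in ES cells, 11.25 to 11.4 in MEFs and 15.8 to 16.56 in iPS cells. The brightest genes dominate such a sum, and a gene marked on 1 array is missing from the sum there. Of the 9 markers, 8 were tested on all arrays. In iPS cells 5 of these were called higher than in ES cells, 1 lower and 2 not called, where 9.08% of all tested genes were higher and 11.8% lower. All 11 fibroblast markers were above background in MEFs and in ES cells. In iPS cells 6 of the 11 were, with Col3a1, Postn, Lox, Dcn and Prrx1 below it, and the summed level was 19.01 to 19.71 in MEFs, 14.81 to 15.32 in ES cells and 12.6 to 12.63 in iPS cells.

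Every member was read by 1 probe of 60 bases except Gbx2, which had 2, and the starts of the probes that the results turn on are shown because each value is the hybridization to that sequence alone. The first 30 bases are given, 5′ to 3′. T and Otx2 were printed in 10 spots each, which gives their ratios a measured spot error, and the pair for Gbx2 lies on opposite strands with 4013 bases between.
T probe (mm8, chr17:8280179-8280238, plus strand): taagagcaataatacatgtcctataatcat
Otx2 probe (mm8, chr14:47580372-47580431, minus strand): agatcattggtttcctgatttgcaaatgat
Gbx2 probe of the gene's transcript (mm8, chr1:91759609-91759668, minus strand): gagagtatattcattagacgggcttaaagg
Gbx2 second probe (mm8, chr1:91763682-91763741, plus strand): tgggagataaagataaatcgatctttatga
The other probes, on mm8, were those of Mixl1 (chr1:182530854-182530913, minus strand), Gsc (chr12:104872266-104872325, minus strand), Pou3f1 (chr4:124161398-124161457, plus strand), Foxd3 (chr4:99150354-99150413, plus strand) and Zic2 (chr14:121614768-121614827, plus strand). Strand was read from the order of the probe coordinates, which matched the strand of the RefSeq gene for 99.7% of 19665 probes. The exon or untranslated region under each probe was not analysed here.

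The 8 genes did not behave as a block. In MEFs 5 of the 7 tested genes were called lower than in ES cells (T, Mixl1, Otx2, Pou3f1 and Gbx2), where a call means an adjusted p under 0.05 in limma with at least a 2-fold change, and 13.6% of all tested genes were called lower. None of the 7 was called higher, against 13.8% of all tested genes, although all 7 had an unadjusted p under 0.05. In iPS cells 3 of the 7 were called lower than in ES cells (T, Mixl1 and Pou3f1), with 11.8% of all genes lower, and none higher, with 9.08% of all genes higher and 6 of the 7 at an unadjusted p under 0.05. Mixl1 was tested only because its ES channels were well above background, so over ES cells it could hardly be called anything but lower. With only probes well above background on every channel, 4 members remained, with 3 lower in MEFs and 2 in iPS cells (T and Pou3f1). Of 14012 genes tested there, 2118 and 1828 were called lower. Between iPS cells and MEFs, 3 of the 7 were called higher in iPS cells (Otx2, Pou3f1 and Gbx2), against 17% of all genes, and none lower, against 18.8%, with 5 of the 7 at an unadjusted p under 0.05. The median log2 ratio of the 7 over ES cells was -1.75 for MEFs and -0.03 for iPS cells, and it was 0.73 between iPS cells and MEFs, where the medians of all tested genes were -0.01, 0.01 and 0.03. Both ratios over ES cells share the ES channel, and since dyes were not swapped a dye effect of a probe stays in them, whereas it cancels between MEFs and iPS cells.

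**Figure D1:**
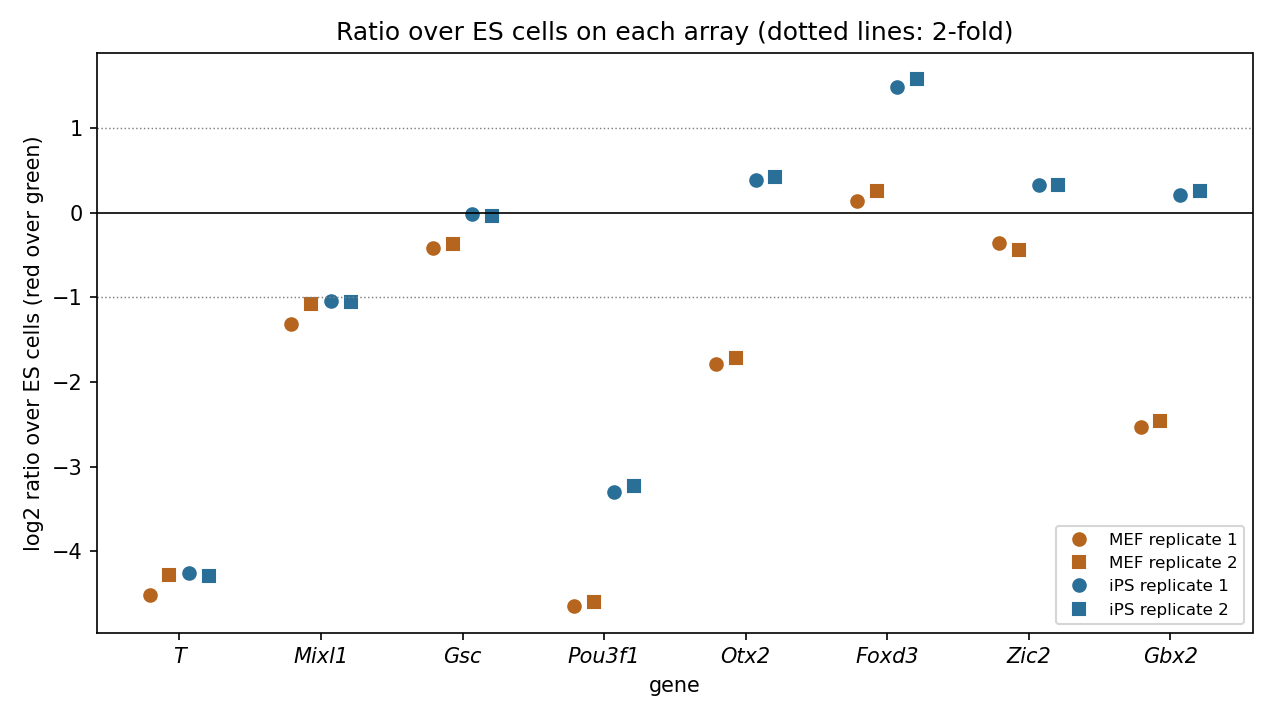
Log2 ratio over ES cells (vertical axis) of the 8 genes (horizontal axis) on each array, with MEF arrays in brown and iPS arrays in blue, replicate 1 as circles and replicate 2 as squares, and dotted lines at 2-fold. T sits between -4.51 and -4.26 on all 4 arrays, while Gbx2 is near -2.5 on the MEF arrays and near 0.2 on the iPS arrays.

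T encodes Brachyury, the T-box factor that marks the primitive streak and is needed for posterior mesoderm. Its normalized log2 level was 11.76 to 11.93 over the 4 ES channels (mean 11.83 ± 0.076, SD, n = 4), 7.28 and 7.48 in MEFs, and 7.59 and 7.64 in iPS cells. The ES channels thus stood far above both other RNAs, without overlap. On the log2 scale the ratio over ES cells was -4.51 and -4.28 on the MEF arrays and -4.26 and -4.29 on the iPS arrays, so T was 21.05-fold lower in MEFs (-4.40 ± 0.064, SE, adjusted p = 5.16e-09, limma) and 19.35-fold lower in iPS cells (-4.27 ± 0.064, adjusted p = 7.35e-09, limma). iPS cells and MEFs did not differ by the test (0.12 ± 0.091, 95% interval -0.094 to 0.34, adjusted p = 0.251, limma), and T remained well above background in both. In bulk RNA, fewer cells expressing a gene and less RNA per cell cannot be told apart. The spots showed how much of this is measurement error. The 10 spots of T ran from -4.64 to -4.39 on the array of MEF replicate 1 and from -4.36 to -4.215 on that of MEF replicate 2, which do not overlap, so the replicate difference exceeded the spot spread. On the iPS arrays they ran from -4.45 to -4.03 and, with 8 spots used, from -4.38 to -4.20, which overlap.

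**Figure D2:**
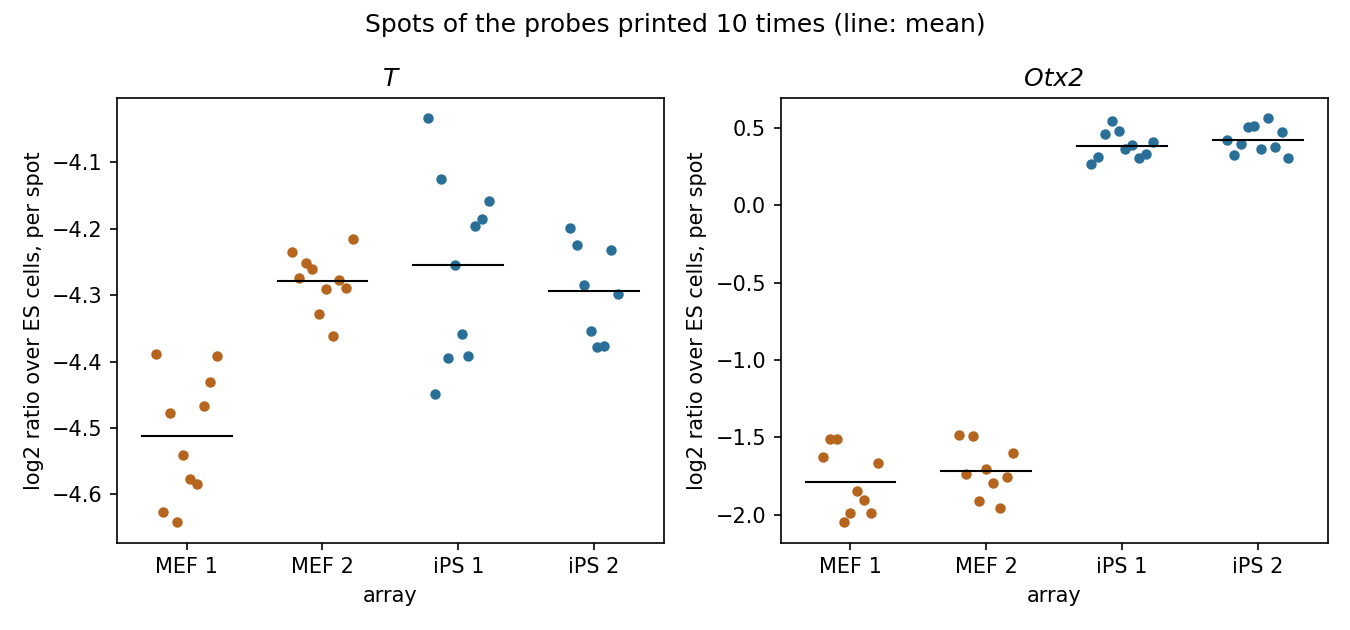
Log2 ratio over ES cells of each used spot (vertical axis, scaled separately for each gene) of the probes for T (left) and Otx2 (right) on the 4 arrays (horizontal axis), with the mean as a line. The T spots of MEF replicate 1 lie below those of MEF replicate 2, and the Otx2 spots of MEF arrays (-2.05 to -1.48) lie below those of iPS arrays (0.26 to 0.56).

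Mixl1, a homeobox factor of the streak that acts in mesoderm and endoderm formation, was lower than in ES cells in both MEFs and iPS cells, as T was. Its level was 7.24 to 7.32 in ES cells, 6.01 and 6.19 in MEFs, and 6.20 and 6.25 in iPS cells. It was well above background on every ES channel and not well above background in MEFs or iPS cells, so only a bound can be given there. Mixl1 was at least 2.21-fold lower in MEFs (fitted log2 ratio -1.195 ± 0.064, adjusted p = 1.5e-06, limma) and lower in iPS cells (-1.05 ± 0.064, adjusted p = 3.98e-06, limma), with no fold given because the bound from the channel levels exceeded the fitted fold. These ratios lie close to the 2-fold threshold. Without background correction they were -0.97 and -0.90 and no longer called, and with median centring the iPS value was -0.98. In the deposited log ratio, which has no offset added, they were -3.52 and -3.27.

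Gsc encodes goosecoid, a homeobox repressor of the anterior streak and organizer, and was the streak gene that did not fall with T. Its level was 9.30 to 9.46 in ES cells, 8.87 and 8.996 in MEFs, and 9.42 and 9.41 in iPS cells. The iPS values lay within the ES range and the MEF values below it. The iPS over ES log2 ratios were -0.01 and -0.04 (fit -0.03 ± 0.047, 95% interval -0.14 to 0.084, adjusted p = 0.604, limma), and the sign turned to 0.18 with median centring and 0.088 in the deposited ratio. In MEFs Gsc was 1.319-fold below ES cells (-0.40 ± 0.047, adjusted p = 0.00013, limma), which is under the 2-fold threshold, and with median centring the difference was -0.14 with an adjusted p of 0.167 in limma.

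**Figure D3:**
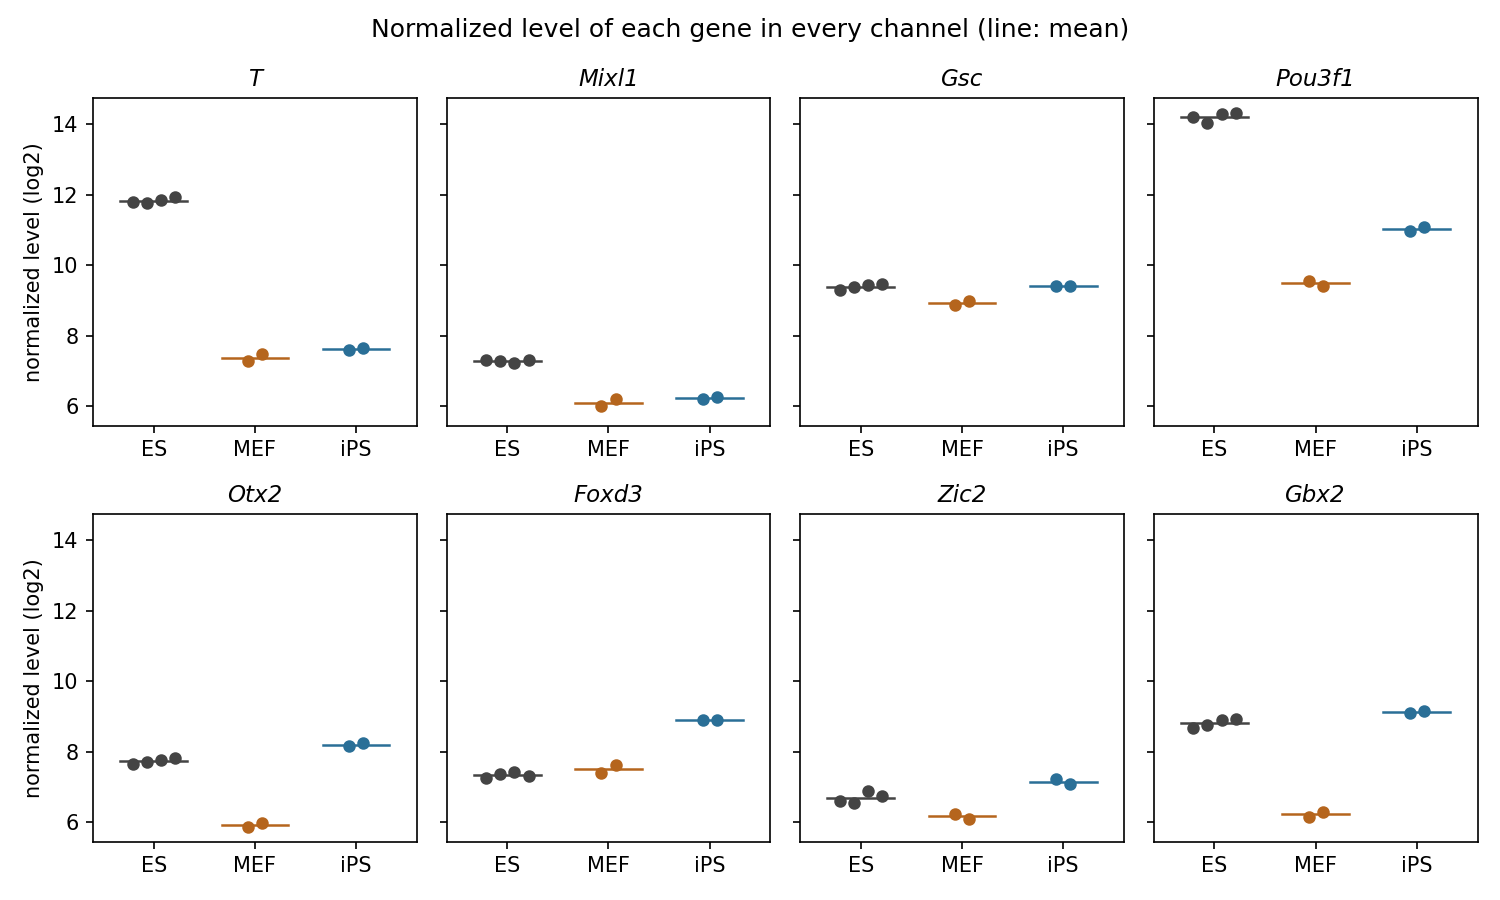
Normalized log2 level (vertical axis, shared) of each gene in the 4 ES channels (grey, green dye), 2 MEF channels (brown, red dye) and 2 iPS channels (blue, red dye), with the mean as a line. Levels come from different probes and are to be compared within a gene, where iPS cells sit with MEFs for T and Mixl1, between MEFs and ES cells for Pou3f1, and within or above the ES range for the other 5 genes.

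Pou3f1 encodes Oct6, a POU factor of the primed epiblast and of neural and Schwann cell lineages. Its level was 14.02 to 14.32 in ES cells (mean 14.21 ± 0.13, SD, n = 4), 9.56 and 9.42 in MEFs, and 10.98 and 11.09 in iPS cells. The 3 RNAs were separated with no overlap, ES cells highest and MEFs lowest. Pou3f1 was 24.63-fold lower in MEFs than in ES cells (log2 ratios -4.65 and -4.60, fit -4.62 ± 0.049, adjusted p = 3.74e-09, limma). In iPS cells it was 9.634-fold lower than in ES cells (-3.30 and -3.23, fit -3.27 ± 0.049, adjusted p = 7.23e-09, limma). It was still 2.556-fold higher in iPS cells than in MEFs (1.35 ± 0.069, adjusted p = 1.31e-06, limma), so that iPS cells lay nearer to MEFs than to ES cells for this gene.

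Otx2, a homeobox factor that drives the exit from the naive state and later patterns the forebrain, had the opposite standing. Its level was 7.66 to 7.82 in ES cells, 5.87 and 5.99 in MEFs, and 8.16 and 8.245 in iPS cells. The iPS values lay above all ES channels, and the MEF values were not well above background. Otx2 was at least 3.13-fold lower in MEFs than in ES cells (log2 ratios -1.79 and -1.715, fit -1.75 ± 0.048, adjusted p = 5.38e-08, limma) and at least 4.32-fold higher in iPS cells than in MEFs (fit 2.16 ± 0.068, adjusted p = 1.18e-07, limma). Its iPS over ES ratio was 0.39 and 0.42 (fit 0.41 ± 0.048, adjusted p = 0.000164, limma), a 1.324-fold difference below the call threshold. The spots of the MEF arrays (-2.05 to -1.51 with 9 used, and -1.96 to -1.48 with 9 used) overlapped each other and stood clear of those of the iPS arrays (0.26 to 0.54 and 0.31 to 0.56). The deposited log ratio put Otx2 at -5.51 between MEFs and ES cells and at 6.195 between iPS cells and MEFs.

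Foxd3, a forkhead factor needed to maintain the epiblast and later the neural crest, was the member called higher in iPS cells than in ES cells. Its spot had a red local background of 60 and 61 on the MEF arrays, whose medians were 49 and 50, and was marked for it. The added fit ignored marks for a local background far from those of other spots, and kept marks for an uneven local background. This setting was chosen after the data were seen, and 18971 genes were tested. The level was 7.26 to 7.43 in ES cells, 7.395 and 7.63 in MEFs, and 8.905 in both iPS samples. MEFs overlapped ES cells and iPS cells lay above both. Foxd3 was 2.879-fold higher in iPS cells than in ES cells (log2 ratios 1.48 and 1.57, fit 1.53 ± 0.055, adjusted p = 2.52e-07, limma) and 2.518-fold higher than in MEFs (1.33 ± 0.077, adjusted p = 2.68e-06, limma). In that fit 9.06% and 16.9% of all tested genes were called higher. In MEFs over ES cells it was not called (0.13 and 0.26, fit 0.19 ± 0.055, adjusted p = 0.0127, limma).

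Zic2 encodes a zinc finger factor of the primed epiblast and the dorsal neural tube, and none of its 3 comparisons was called. Its level was 6.555 to 6.895 in ES cells, 6.25 and 6.11 in MEFs, where it was not well above background, and 7.22 and 7.09 in iPS cells. The groups did not overlap. The log2 ratio over ES cells was -0.36 and -0.44 in MEFs (fit -0.40 ± 0.048, adjusted p = 0.000143, limma) and 0.33 on both iPS arrays (fit 0.33 ± 0.048, adjusted p = 0.000536, limma). Between iPS cells and MEFs the fit gave 0.73 ± 0.068 (adjusted p = 3.81e-05, limma). No fold is given for MEFs, where the probe has only a bound, because the bound from the channel levels exceeded the fitted fold. In the deposited log ratio Zic2 was called, at -1.71 between MEFs and ES cells (adjusted p = 0.00204, limma) and at 2.63 between iPS cells and MEFs (adjusted p = 0.00175, limma).

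Gbx2 encodes a homeobox factor that sets the hindbrain side of the border with Otx2 in the neural tube and acts downstream of LIF and Stat3 in naive cells. Its level was 8.69 to 8.92 in ES cells, 6.16 and 6.30 in MEFs, and 9.11 and 9.17 in iPS cells. MEFs stood apart from both pluripotent RNAs, and iPS cells lay just above the highest ES channel. Gbx2 was 5.64-fold lower in MEFs than in ES cells (log2 ratios -2.53 and -2.46, fit -2.50 ± 0.049, adjusted p = 1.26e-08, limma) and 6.595-fold higher in iPS cells than in MEFs (2.72 ± 0.069, adjusted p = 4.2e-08, limma). In MEFs the probe was well above background, but its mean level of 6.23 was close to the lowest such level (mean 6.09). Both folds therefore depend on the offset added to the signals. Against ES cells the iPS ratio of 0.20 and 0.25 (fit 0.23 ± 0.049, adjusted p = 0.00392, limma) was not called. The second probe, on the opposite strand, was not well above background in any RNA and was not tested. Its ratios were -0.09 and 0.05 in MEFs and 0.13 and 0.24 in iPS cells, which at background carry no information on the transcript. The deposited log ratio put the first probe at -4.09 between MEFs and ES cells and at 4.43 between iPS cells and MEFs.

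The MEF ratios depended on how the background of 1 array was treated. On the array of MEF replicate 1, 14 spots had a local background above 500, with the highest at 694663, and all other arrays had none. When the background model was fitted over all spots rather than over the unmarked ones, that array read -0.38 for T, -2.42 for Pou3f1 and -0.04 for Gbx2, while MEF replicate 2 still read -4.27, -4.59 and -2.44. No member then passed the test between MEFs and ES cells or between iPS cells and MEFs (1 and 0 of the 7 at an unadjusted p under 0.05, limma). Between iPS and ES cells Pou3f1 was still called, and T and Mixl1 kept their values (-4.27 and -1.04) with adjusted p of 0.0651 and 0.086 in limma. With that array left out of the fit over unmarked spots, the counts of called members were 5, 3 and 3, as with all arrays.

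**Figure D4:**
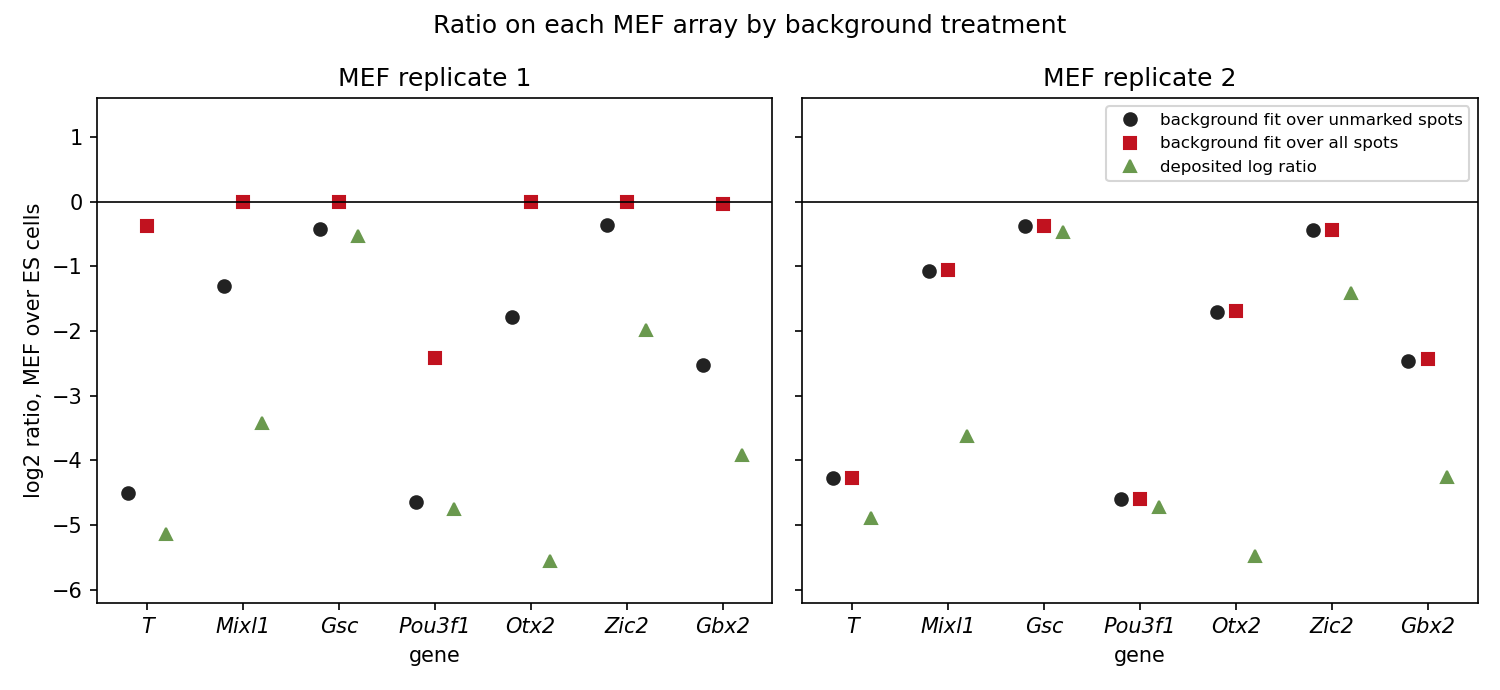
Log2 ratio of MEFs over ES cells (vertical axis) of the 7 tested genes (horizontal axis) on each MEF array under 3 treatments of background: normexp fitted over unmarked spots (black circles), normexp fitted over all spots (red squares) and the deposited log ratio (green triangles). In MEF replicate 1 the red squares of all genes but Pou3f1 and T lie at about 0, and in MEF replicate 2 they coincide with the black circles.

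Other genes of the primitive streak, mesendoderm and nascent mesoderm were mostly lower in iPS cells than in ES cells. Of 32 tested genes of this list, 18 fell, 2 rose and 12 were not called, with a median log2 ratio of -1.20. Among all tested genes 11.8% were lower and 9.08% higher in that comparison, and 13.6% and 13.8% in MEFs over ES cells. Among those that fell most were Sp5, a transcription factor and direct target of Wnt signalling (-5.47 ± 0.047, adjusted p = 3.31e-09, limma), and Wnt3, the ligand needed to start the streak (-4.14 ± 0.065, adjusted p = 8.04e-09, limma). The genes that rose were Tbx3 (3.71 ± 0.053), a T-box factor also expressed in naive cells, and Hhex (1.95 ± 0.048), a homeobox factor of anterior endoderm. In MEFs 18 of the 32 fell relative to ES cells, 4 rose and 10 did not pass (median -1.22), with Sp5 at -5.89 and Wnt3 at -4.125, and with Pdgfra (2.305), a growth factor receptor of mesenchyme, and Snai1 (1.42), a repressor of epithelial genes, highest. Between iPS cells and MEFs 5 of the 32 were called higher in iPS cells and 7 lower, near the 17% and 18.8% of all tested genes. The median lay at -0.01 (0.0091 in the deposited ratio). With the background model fitted over all spots, 6 of the 32 were still called lower in iPS than in ES cells.

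Other genes of the primed and formative epiblast were also lower in iPS cells more often than higher. Of 23 tested genes, 12 were lower in iPS cells than in ES cells, 2 were higher and 9 did not pass (median -1.29), and with the background model fitted over all spots 5 were lower and 1 was higher. Among all tested genes 11.8% were lower and 9.08% higher there, so the 2 that were higher are near the general share. Fgf8, a growth factor of the epiblast and streak (-4.79 ± 0.073, adjusted p = 7.43e-09, limma), and Epha1, an ephrin receptor (-3.82 ± 0.052), were lowest. Utf1, a chromatin factor of pluripotent cells (1.605 ± 0.066), and Dnmt3a, a de novo DNA methyltransferase (1.57 ± 0.059), were higher. In MEFs 15 of the 23 were lower than in ES cells and 8 did not pass (median -1.67), with Lin28a, an inhibitor of let-7 maturation, at -4.78 and Fgf8 at -4.765. In iPS cells over MEFs 11 rose, with Dnmt3b at 5.09 and the Nodal co-receptor Tdgf1 at 3.94, and 5 fell, with Fgf5 at -2.33 and Epha1 at -2.24. With the background model fitted over all spots, 0 rose and 3 fell there, and 0 of the 23 were called in MEFs over ES cells. Among all tested genes 13.6% were lower in MEFs than in ES cells. Between iPS cells and MEFs 17% rose and 18.8% fell, so the 5 that fell are near the general share.

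The naive pluripotency genes went the other way in iPS cells. Of 14 tested, 9 were higher than in ES cells and 5 did not pass (median 2.01, with 5 called higher when the background model was fitted over all spots), with Tbx3 (3.71) and Nr0b1, which encodes Dax1 (3.365 ± 0.047, adjusted p = 6.14e-09, limma), highest. In MEFs 7 of the 14 were lower than in ES cells, Zfp42 most (-6.50), and 1 was higher, the LIF signal transducer Stat3 (2.81). In iPS cells over MEFs 12 rose, with Dppa3 at 6.39, and Stat3 fell (-2.56). With the background model fitted over all spots, 5 rose there. The shares of all tested genes in iPS cells over MEFs were 17% higher and 18.8% lower. Against ES cells, 9.08% were called higher in iPS cells, and 13.6% lower and 13.8% higher in MEFs.

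Close relatives of the members did not move as a family. Of 17 tested paralogs, 5 were higher and 5 lower in MEFs than in ES cells, with Zic1 (4.85 ± 0.1) and Tbx15 (3.52) highest, where Zic2 was not called, and Pou2f1 at -2.77 among those that fell. Relative to ES cells, 5 were lower in iPS cells and 12 did not pass, with Tbx6, a T-box factor of paraxial mesoderm, at -2.32 and Foxd1 at -2.11. In iPS cells over MEFs 3 rose, with Pou2f1 at 2.58, and 5 fell, with Zic1 at -6.11 and Foxd1 at -5.05. Of all tested genes 17% rose and 18.8% fell there, so the 3 of 17 paralogs that rose are near the general share. Against ES cells, 13.8% of all tested genes were called higher and 13.6% lower in MEFs, and 9.08% and 11.8% in iPS cells. Of 17 neural plate and neural crest genes, which Otx2, Foxd3, Zic2 and Gbx2 also serve later, 1 rose (En2, 1.97) and 6 fell in iPS cells over ES cells, with Nes at -3.66. In MEFs over ES cells 5 rose, with Snai2 at 4.48 and Sox10 at 2.36, and 1 fell, Pax6, whose tested probe was not well above background in MEFs although another probe of the gene was. In iPS cells over MEFs 2 rose, with En2 at 2.84, and 7 fell, with Snai2 at -5.02 and Nes at -4.33. The shares of all tested genes just given apply to this list as well. The genes of this list that rose in iPS cells, in either comparison, do not exceed them. The 5 lists hold 117 genes, none of them a member, and 7 genes are in more than 1 list.

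**Figure D5:**
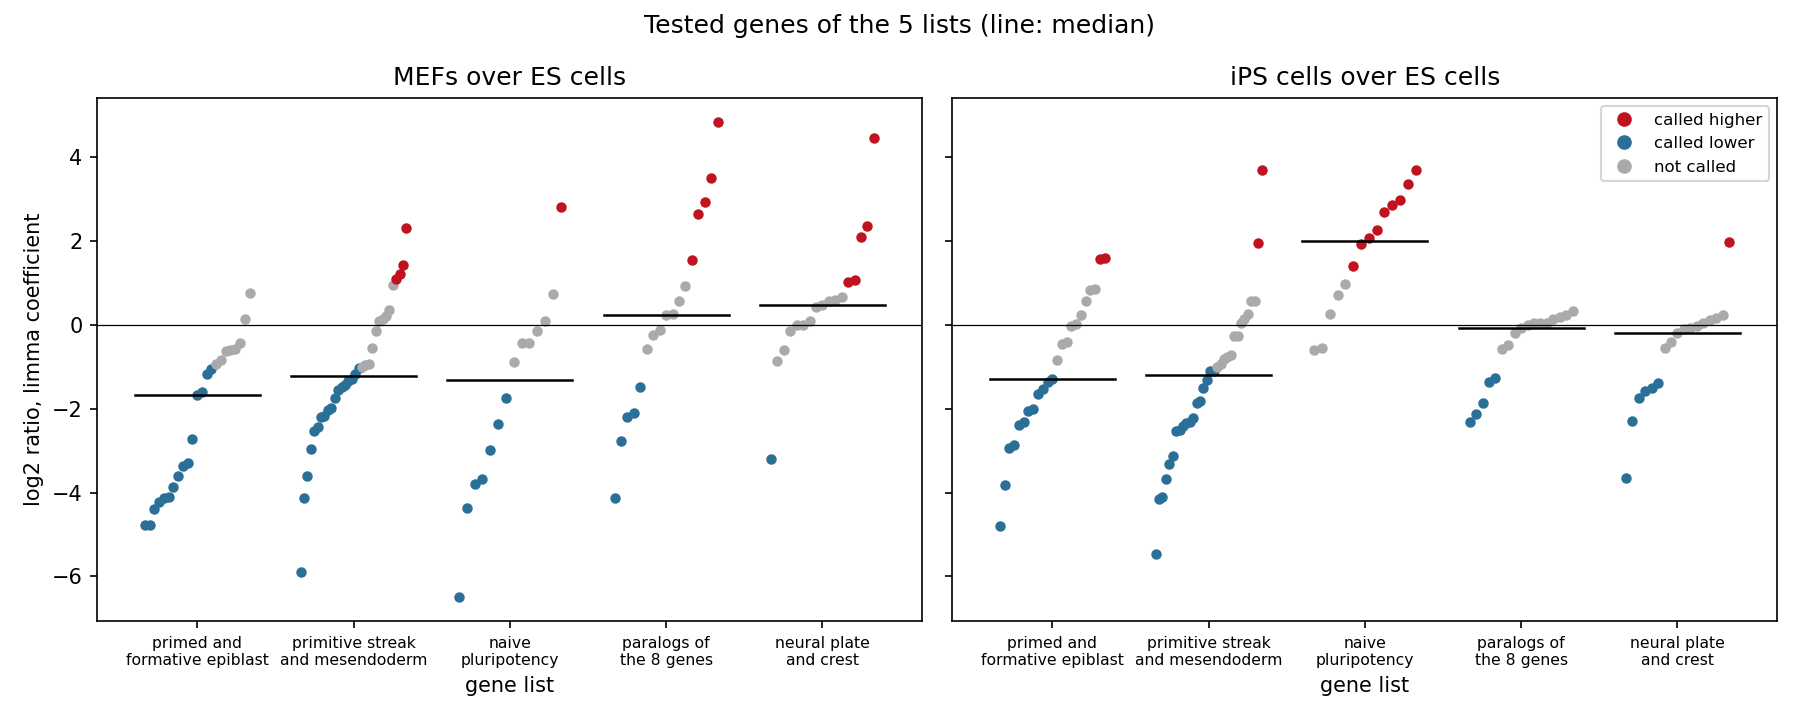
Log2 ratio (vertical axis, limma coefficient) of each tested gene of the 5 lists (horizontal axis) in MEFs over ES cells (left) and iPS cells over ES cells (right), coloured by call, with the list median as a line. In iPS cells the medians of the epiblast and streak lists lie at -1.29 and -1.20 and that of the naive list at 2.01.

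Among the marker lists of other cell types, the summed level of the trophoblast list was ordered as T and Pou3f1 were, with ES cells highest. This is the log2 of a sum of unlogged levels, so the brightest genes of a list dominate it. For the 7 trophoblast markers it was 18.58 to 18.65 in ES cells, 14.13 to 14.16 in MEFs and 14.62 to 14.69 in iPS cells. Of the 7, 6, 5 and 7 were well above background. Gene by gene the list was mixed in iPS cells relative to ES cells, with 3 of the 7 lower, 1 higher and 3 not called (median log2 ratio -0.41), while in MEFs 5 were lower and 2 not called (median -3.51). Among all tested genes 11.8% were lower and 9.08% higher in iPS cells, and 13.6% were lower in MEFs. Elf5 was the marker of the 7 not well above background in the ES RNA, where the other 6 were. In MEFs neither Elf5 nor Cdx2 was, and in iPS cells both were. The neural markers summed to 13.84 to 13.85 in ES cells, 14.3 to 14.5 in MEFs and 11.89 to 11.92 in iPS cells, with 6, 6 and 5 of 6 above background. The neural, primitive endoderm and germ cell markers did not follow the order of T and Pou3f1. The primitive endoderm markers summed to 10.75 to 10.81, 12.11 to 12.16 and 10.98 to 11, with 7, 6 and 7 of 8 above background, and the germ cell markers to 11.32 to 11.41, 9.058 to 9.15 and 14.52 to 14.6, with 6, 1 and 6 of 6. The part of other cells in the ES culture in the levels of T, Mixl1 and Pou3f1 was not tested.

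For each member the gene with the most similar ratios was found by Euclidean distance over the 4 arrays' log2 ratios among 17613 other genes (18963 for Foxd3). For T it was Krt8, a keratin of simple epithelia and 1 of the trophoblast markers (-4.33 and -4.19 in MEFs, -4.11 and -4.16 in iPS cells, distance 0.281). For Mixl1 it was Hoxb1, a homeobox gene of the posterior streak (-1.23, -1.09, -1.08 and -1.11, distance 0.106). Neither probe was well above background in MEFs or iPS cells, so these ratios reflect mainly the ES level of each probe. For Pou3f1 it was Crb3, an apical polarity gene of epithelia (-4.57, -4.50, -3.22 and -3.25, distance 0.153). The nearest genes to Gsc, Foxd3, Zic2 and Gbx2 were Zbtb39 (0.0431), Dcp2 (0.0447), Zmat2 (0.058) and Wdr31 (0.073), and that to Otx2 was a transcript with no gene symbol (0.101). With 4 arrays, small distances are easily reached and describe these samples only.

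The promoter of T is shown because T, Sp5 and Wnt3 were all lower than in ES cells, in iPS cells and in MEFs alike. The part of Wnt signalling in this was not tested. RefSeq promoters (GRCm38.p6) were matched for T, Gsc, Otx2, Foxd3 and Gbx2, and those of Mixl1, Pou3f1 and Zic2 were not used here. The 250 bases before the start of T are given 5′ to 3′, and the capitals mark the match to the TCF motif CTTTGA on the opposite strand.
T promoter (GRCm38.p6, chr17:8434173-8434422, plus strand): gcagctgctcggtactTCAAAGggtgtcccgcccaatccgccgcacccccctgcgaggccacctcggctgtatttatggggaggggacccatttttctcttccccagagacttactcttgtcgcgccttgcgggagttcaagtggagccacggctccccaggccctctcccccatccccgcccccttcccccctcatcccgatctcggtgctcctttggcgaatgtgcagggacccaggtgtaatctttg
This motif, searched on both strands, was in 13.8% of 32851 promoter windows of the same length, and among the 8 windows of the members (Otx2 has 4 starts) only in that of T. So 1 match in 8 windows is near the general share. The T window had 62.8% G and C and 14 CpG, against medians of 52.4% and 6 over all windows. The bicoid motif TAATCC, which Otx2 and Gsc bind, was in 1 window of Otx2 (6.25% of all windows), and TATAAA in windows of Gsc and Otx2 (12.4%). The T-box motif AGGTGTGA (1.12%), the octamer ATGCAAAT (1.6%) and the forkhead motif TGTTTAC (3.17%) were in none of the 8. A match describes the letters of a window and is no evidence of binding.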

How the data were processed

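RNA of ES cells (green on every array) and of MEFs or iPS cells (red, 2 arrays each) was measured on 4 Agilent arrays. The labels' protocols give 1 µg of each RNA, amplified and labelled with an Agilent kit. Per the file headers, the authors used Agilent Feature Extraction, version 10.5.1.1, on scans at 5 micron. The deposited intensity values are the mean signal and the median local background of each spot, not normalized. The log10 ratios the authors deposited, red over green, came from signals the software had background-subtracted and dye-normalized (LOWESS smoothing factor 0.25, per the file headers), and were turned to log2 here.

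Signals were corrected with normexp (offset 50, which pulls ratios of dim probes toward 0) and loess (span 0.3) in limma 3.58.1 (R 4.3.3; files read with the package data.table, 1.17.8). Normexp was fitted over unmarked spots, an order adopted in earlier work on these data after both counts were seen. Control and marked spots were left out and spots of a probe averaged. The filter on dim probes kept 27725 of 41174 (those well above background on all arrays of at least 1 RNA), of which 24874 had values on every array. A coefficient per group was fitted by lmFit and eBayes, with 2 degrees of freedom from the arrays and 4.91 from the prior, and adjusted by Benjamini-Hochberg over all tested probes. A gene was called by its brightest probe at an adjusted p under 0.05 and at least 2-fold. Names came from RefSeq accessions for 24375 probes and otherwise from the array files.

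Levels are normalized log2 values per channel. A summed level is the log2 of the sum of unlogged levels over the genes of a list. Each gene entered by its brightest probe with a value on that array. An "at least" fold sets the bright group's mean against the higher of the dim probe's value and the lowest probe well above background, per array, is open to dye bias, and is left out where it exceeds the fitted fold. The number of arrays limits the precision. The members, gene lists and markers were chosen with earlier results of these data known. The text names all members and, per list and comparison, up to 2 called genes at each end. One result of a list is not reported here. Alternatives varied background, normalization, filters, probes per gene, the variance model, the replicate block and the arrays used. The tests were checked on simulated data.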

Additional observations from a re-analysis of the deposited data

Results flagged for a closer look

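For 4 of the 8 genes the ratio over ES cells differed between iPS cells and MEFs beyond the call threshold, tested in limma as iPS cells over MEFs, and all 4 ratios were higher on 2 of 2 iPS arrays than on the MEF arrays. In the fit that includes Foxd3, 16.9% of all tested genes were called higher in iPS cells than in MEFs. The log2 difference was 2.72 for Gbx2 and 2.16 for Otx2, both of which were called lower in MEFs and not called in iPS cells relative to ES cells. It was 1.35 for Pou3f1, which was called lower in both. For Foxd3 it was 1.33 in the added fit that ignores marks for an outlying local background. Foxd3 was called higher in iPS cells and not called in MEFs. Over the 4 ES channels no probe of the 8 genes had a sample far from the others, where chance gives about 1 in 20 groups of this size.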

How the results depend on the processing

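The counts of called members (5 for MEFs and 3 for iPS cells against ES cells, and 3 for iPS cells against MEFs) stayed at 5, 3 and 3 when any 1 array was left out and with the replicate block (5, 3 and 3). The difference between replicates 1 and 2 was hardly correlated between MEFs and iPS cells (-0.11 over 24874 probes), which gives no clear ground for either pairing. A crossed pairing, added after the data were seen, also gave 5, 3 and 3. With normexp over all spots the counts were 0, 1 and 0 (limma, with 1, 3 and 0 members at an unadjusted p under 0.05). With marked spots kept they were 0 (1 member at an unadjusted p under 0.05), 2 and 1, with Foxd3 among the 8 tested. The 2 were Pou3f1, called lower, and Foxd3, called higher, while T and Mixl1 lost their calls (adjusted p of 0.063 and 0.0841, limma). Under these settings the array of MEF replicate 1 has compressed ratios, and T between iPS cells and MEFs turned to -1.94 and -1.93 and Mixl1 to -0.51 and -0.50. A stricter filter on dim probes left 4 members. It called 3 in MEFs and 2 in iPS cells (T and Pou3f1) against ES cells, and 2 in iPS cells against MEFs. Gsc in iPS over ES cells, not called, turned to 0.18 with median centring and 0.088 in the deposited ratio, and the cause was not tested. Among the alternatives for counts and single genes, 341 values were classed as unchanged, 23 as weaker and 2 as stronger, and 6 turned sign. For a single gene, unchanged means that direction and side of the threshold were kept. A count could be classed so although it moved, as the 4 in MEFs without background correction, or although other members were called. The stricter filter's count in MEFs is among the weaker, where only 4 members were tested. The quantile step, the filters, the variance model and the replicate blocks leave the fitted ratio of a probe unchanged by construction. Leaving out an array of 1 group does the same for the other group's ratio over ES cells. Much of the count of 341 was thus set in advance and is a weak measure of robustness.

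Over all tested genes, normexp over all spots called 0 genes in MEFs against ES cells (limma, 2146 at an unadjusted p under 0.05), and 1004 higher and 1146 lower in iPS cells against MEFs. Marked spots kept gave 99 and 87, and 1132 and 1323. The counts reported were 2432 and 2398, and 2987 and 3321. The deposited ratio gave 4811 and 4092 between iPS cells and MEFs. Against ES cells it gave 3444 and 3945 for MEFs and 3036 and 3081 for iPS cells, where 1600 and 2077 were reported. Median centring moved the median of all genes to 0.18 and 0.17 against ES cells, and gave 3632 higher and 1597 lower in MEFs (69.5% higher, from 50.4%) and 2624 and 1573 in iPS cells (62.5%, from 43.5%). Signal over background limits Mixl1, Otx2 and Zic2 in MEFs and Mixl1 in iPS cells to bounds. Gbx2 in MEFs was well above background but close to that limit.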
